A study of Mus musculus with 4 samples.

Results

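The loci of Bach2 and Satb1 were examined by DNase-seq peak calls in mouse CD8+ T cells. Members were all listed peaks of the mouse build mm9 with a midpoint at chromosome 4, 32300000 to 32720000 (Bach2), or chromosome 17, 51780000 to 52100000 (Satb1). These windows of 420 and 320 kb held 79 of the 84735 listed peaks. Peaks of the 4 libraries that overlapped by at least 1 bp were merged, which gave 36 sites of 38986 in all, 26 at Bach2 and 10 at Satb1. Sites are numbered along each window from low to high coordinates. The position rule uses no measured value.

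Naive CD8+ T cells were sorted from spleen as GFP+ TCRbeta+ CD62Lhi CD44lo-med cells. They were then cultured with IL-7 plus IL-15, cytokines of T cell survival, for 72 h. The cells were lysed and their DNA was cut with DNase I, an enzyme that cleaves open chromatin. All mice carried hCD2-Cre, a recombinase under human CD2 control that acts in lymphocytes, and Rosa26-lsl-GFP, a reporter that marks cells in which Cre has acted. The 2 wild-type (WT) libraries had wild-type Tcf1 and Lef1, and the 2 double-knockout (DKO) libraries came from double floxed mice and are labelled Tcf1-/-Lef1-/-. Age was not given. Whether the replicates are separate animals is not stated either, and p-values measure only the spread between these libraries, which may be technical. The loss of Tcf1 and Lef1, and the marker genes of CD8+ T cells, were not checked in these lists, which carry no gene names.

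Bach2 is a transcriptional repressor of the bZIP class that restrains effector differentiation and helps to keep lymphocytes in a naive or memory state. It competes with activating AP-1 factors for related DNA sites. Satb1 is a nuclear protein that binds AT-rich DNA, organises chromatin loops and is abundant in thymocytes and naive T cells. Both genes are counted among the regulators of T cell stemness, and Tcf1 (encoded by Tcf7) is a central factor of the same state.

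WT replicate 1 had 17521 listed peaks and WT replicate 2 had 11073, while the DKO replicates had 34788 and 21353. DKO lists were thus longer across the genome, and any count below has to be read beside that. Fold enrichment here is the summit pileup plus 1, divided by the local background plus 1. The smallest fold listed was just above 4 in each library. The smallest summit pileup listed was 10 and 9 fragments in WT and 8 and 8 in DKO. A site without a call did not pass these thresholds and need not be closed. Both DKO lists also had peaks on chromosome Y, 55 and 57, and the WT lists had 0, so genotype and this difference cannot be told apart. In bulk libraries, fewer cells with an open site and less opening per cell cannot be told apart either.

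Sequence at the annotated starts of both genes is shown because a site called in both DKO lists lay at the upper end of Satb1. No mm9 genome was used here, so the sequences of the sites themselves are not printed. The following are the 250 bases before a RefSeq start in build GRCm38.p6, whose positions cannot be set against the mm9 sites. RefSeq lists 1 such start for Bach2 and 5 for Satb1, which is on the minus strand. For Satb1, start 1 is the outermost, starts 1 and 2 lie at the upper end, and start 4 is further inside the gene. Capitals mark matches on either strand. The TCF/LEF-type words searched were CTTTGAA and CTTTGAT, together with the words CTTTGTA and CTTTGTT. The RUNX-type word was TGTGGT, and the ETS-type word CCGGAA; no match overlapped another in these stretches.
Bach2 start, chr4:32417185-32417434, plus strand: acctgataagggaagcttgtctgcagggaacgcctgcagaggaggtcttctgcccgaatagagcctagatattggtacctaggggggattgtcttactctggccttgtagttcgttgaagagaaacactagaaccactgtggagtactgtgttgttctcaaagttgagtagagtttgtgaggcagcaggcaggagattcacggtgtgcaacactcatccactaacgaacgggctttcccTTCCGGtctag
Satb1 start 1, chr17:51833291-51833540, minus strand: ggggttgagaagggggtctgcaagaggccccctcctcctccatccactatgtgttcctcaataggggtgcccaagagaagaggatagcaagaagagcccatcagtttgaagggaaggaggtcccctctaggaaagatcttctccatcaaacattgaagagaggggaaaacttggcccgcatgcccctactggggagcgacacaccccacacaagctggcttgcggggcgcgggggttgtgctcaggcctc
Satb1 start 2, chr17:51832648-51832897, minus strand: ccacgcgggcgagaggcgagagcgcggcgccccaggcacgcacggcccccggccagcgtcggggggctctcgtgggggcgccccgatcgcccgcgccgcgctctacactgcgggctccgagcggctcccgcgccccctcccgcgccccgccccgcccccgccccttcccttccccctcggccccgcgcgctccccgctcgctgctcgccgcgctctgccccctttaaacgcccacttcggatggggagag
Satb1 start 4, chr17:51812185-51812434, minus strand: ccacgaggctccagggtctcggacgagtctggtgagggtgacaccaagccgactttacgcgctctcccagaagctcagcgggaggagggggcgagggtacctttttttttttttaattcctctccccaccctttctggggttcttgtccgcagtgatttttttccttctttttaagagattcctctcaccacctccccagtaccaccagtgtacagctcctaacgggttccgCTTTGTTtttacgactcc
The Bach2 stretch held 1 match, of ETS type. A CCGGAA match was present in 12% of the 32817 RefSeq starts of the same length. Satb1 starts 1 and 2 held no match of any type, which says only that these letters are not in the stretch. Start 4 held 1 match of TCF/LEF type, found in 14.8% of all starts, and RUNX-type letters, found in 14.0%, were in none of the 4 printed sequences. Satb1 starts 3 and 5 are not printed. Start 3 held no match of any type. Start 5 overlaps start 4 and held the same TCF/LEF-type match. As only some starts were printed, nothing about Satb1 is read from this match. Satb1 start 2 was 80.8% G and C with 41 CpG dinucleotides, against medians of 52.4% and 6 over all starts. The Bach2 stretch was 50.4% G and C with 7 CpG.

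The Bach2 window was rich in listed sites and the Satb1 window less so. Bach2 had 6.19 sites per 100 kb and Satb1 3.13, against an average of 1.54 per 100 kb over the autosomes. Autosomal tiles of 420 kb held a median of 3 sites where Bach2 held 26, and tiles of 320 kb held a median of 2 where Satb1 held 10. The fullest tiles held 74 and 64 sites.

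At Bach2 WT replicate 1 listed 14 peaks and WT replicate 2 listed 10, against 24 for DKO replicate 1 and 13 for DKO replicate 2. The means were 12 ± 2.83 in WT and 18.5 ± 7.78 in DKO (SD, n = 2 each). DKO replicate 1 stood above the rest, while DKO replicate 2 fell between the WT replicates. The DKO mean was 0.58 higher on the log2 scale, which did not exceed the spread (exact two-sided permutation p = 0.67, smallest possible 0.33). For all peaks of the series that log2 difference was 0.97. Per 10000 listed peaks, a scaling added after the data were seen, Bach2 took 7.99 and 9.03 in WT and 6.90 and 6.09 in DKO. On that scale the genotypes did not overlap and the direction turned, with DKO minus WT at -0.39 (log2; exact permutation p = 0.33, the smallest possible).

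At Satb1, WT replicates 1 and 2 had 4 peaks and 1 peak, against 9 and 4 for the DKO replicates. The means were 2.5 ± 2.12 and 6.5 ± 3.54 (SD, n = 2 each). WT replicate 1 and DKO replicate 2 tied. The log2 difference of 1.58 did not exceed the spread (exact two-sided permutation p = 0.67). Per 10000 listed peaks the values were 2.28 and 0.903 in WT and 2.59 and 1.87 in DKO, a log2 difference of 0.62 (exact permutation p = 0.67). With 2 libraries per genotype no such test can pass 0.05, so these p-values do not show that the genotypes were alike.

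**Figure D1:**
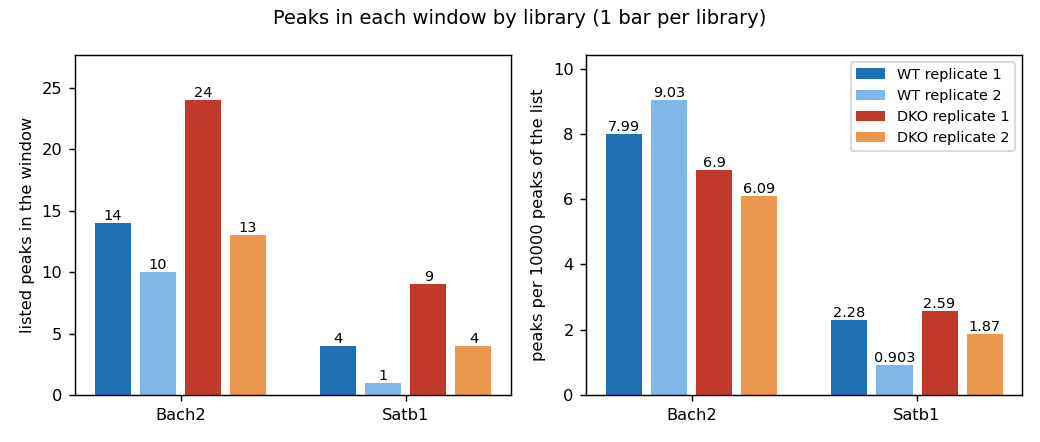
Listed peaks in the Bach2 and Satb1 windows, 1 bar per library, as numbers (left axis, peaks) and per 10000 peaks of the same list (right axis). DKO replicate 1 has the most peaks in both windows, 24 and 9, but per 10000 listed peaks both DKO libraries lie below both WT libraries at Bach2.

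All 4 libraries called 6 of 26 sites at Bach2 (23.1%) and 1 of 10 at Satb1, against 20.7% of all sites. Calls in 3 libraries were made at 5 and 1 sites, against 15.4% of all sites. Calls in 2 libraries were made at 7 and 3 sites, against 22.2%, and calls in 1 library at 8 and 5 sites, against 41.7%. WT replicate 1 called 14 Bach2 sites (53.8%, background 44.5%) and WT replicate 2 called 10 (38.5%, background 28.2%). DKO replicate 1 called 24 (92.3%, background 88.6%) and DKO replicate 2 called 13 of the 26 (background 53.9%). DKO replicate 1, the longest list, thus held nearly all of the Bach2 sites, and 9 of the 10 at Satb1.

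Sites called in both DKO lists and neither WT list (DKO-only) numbered 3 of 26 at Bach2 and 2 of 10 at Satb1. Over all sites 14.3% were DKO-only, and for both loci together the share was 13.9%, so these counts are near the background. The opposite class, WT-only, had 0 members among the 36 sites, against a background of 0.631%. The upper limit of 3 in 36, or 8.33%, treats sites as independent draws, which neighbours in the same 4 libraries are not. Of the 12 Bach2 sites called in both DKO lists, 6 were called in both WT lists, 3 in 1 and 3 in 0. In the series, 29.3% of the sites called in both DKO lists were called in 0 WT lists, against 25.0% at Bach2 and 2 of 4 at Satb1. DKO replicate 1 alone called 6 Bach2 and 4 Satb1 sites, against a background of 31.6%. Leaving out a library can only raise the DKO-only count. It rose to 9 at Bach2 and 6 at Satb1 without DKO replicate 2, to 5 at Bach2 without WT replicate 2 and to 3 at Satb1 without WT replicate 1. The sites added without DKO replicate 2 were those of DKO replicate 1 alone, a class that made up 31.6% of all sites. The DKO-only share over all sites was not computed with a library left out, so nothing about the loci is read from these rises.

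**Figure D2:**
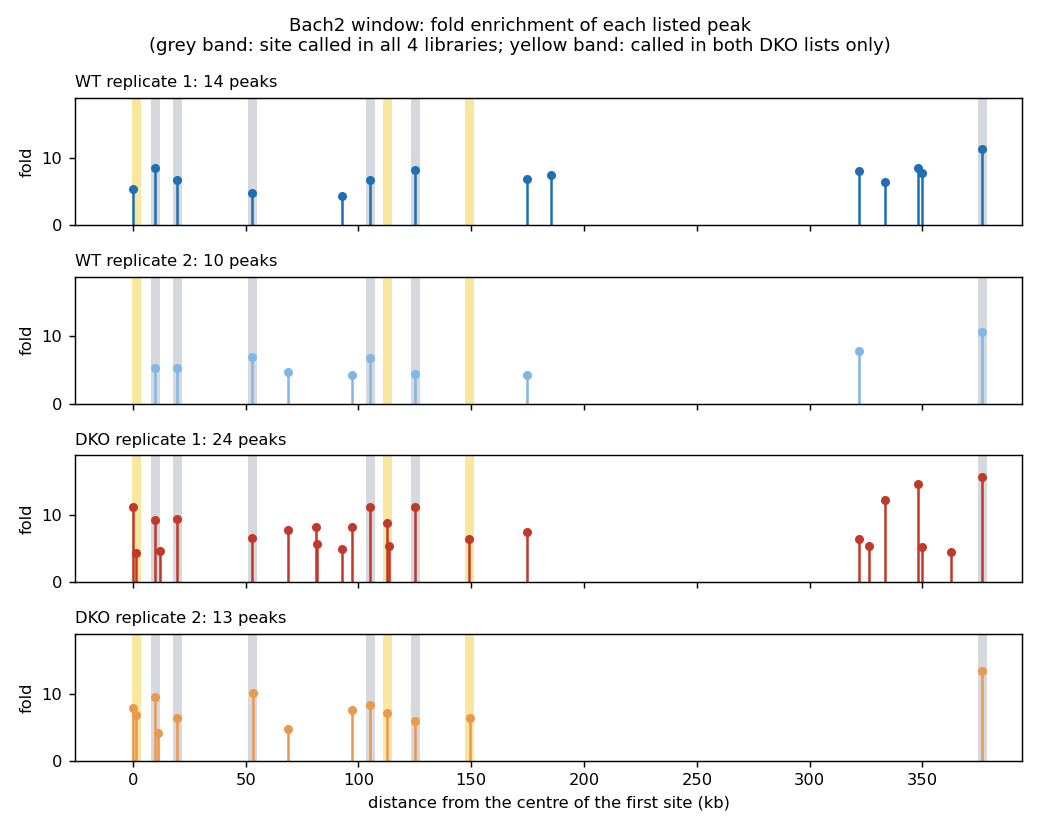
Fold enrichment (vertical axis, ratio) of each listed peak in the Bach2 window against distance from the centre of site 1 (horizontal axis, kb), 1 panel per library. Grey bands mark the 6 sites called in all 4 libraries and yellow bands the 3 DKO-only sites. The middle of the window has no call for 136.36 kb, and DKO replicate 2 has 1 call beyond it.

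The 26 Bach2 sites formed a lower group of 19 and an upper group of 7. The lower group ran from 32325566 to 32510890 and the upper from 32647251 to 32702450, with no call in any library over the 136.36 kb between them. In the lower group the libraries had 9 and 8 calls in WT and 17 and 12 in DKO. Over all sites of the series the DKO lists likewise held more calls, at 88.6% and 53.9% of sites against 44.5% and 28.2% in WT, so nothing about Bach2 is read from this order. In the upper group there were 5 and 2 calls in WT, against 7 and 1 in DKO. Each second replicate had fewer calls there than each first replicate. DKO replicate 2 had no call for 227.09 kb, from 32475018 to 32702109. The split of the sites at this gap was made after their positions were seen. In RefSeq's gene order the genes after Bach2 and its antisense Bach2os are Gja10, a connexin, and Casp8ap2, a caspase 8-associated protein. Which of the upper sites lie in or near those genes was not determined.

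The highest folds of the Bach2 window were at its last site, site 26, of 452 bp at chromosome 4, 32701999 to 32702450. It belongs to the upper group, and whether it lies in Bach2 or in a later gene was not determined. The authors' fold was 11.4 in WT replicate 1, 10.7 in WT replicate 2, 15.7 in DKO replicate 1 and 13.4 in DKO replicate 2. The summit pileup, the number of fragments over the summit, reached 39 and 35 for the WT libraries and 68 and 43 for the DKO libraries. The exact 95% Poisson intervals were 27.7 to 53.3 and 24.4 to 48.7 for WT, and 52.8 to 86.2 and 31.1 to 57.9 for DKO. These intervals cover counting error only, and pileups are not scaled for depth. The site stood above 95.5% and 96.8% of the WT lists and above 90.6% and 93.4% of the DKO lists. It was the only peak of the Bach2 window in the top 10% of each list.

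Site 3, 235 bp at 32335364 to 32335598, had folds of 8.51 and 5.23 in WT and 9.18 and 9.53 in DKO. Its pileups were 37 and 22 in WT and 48 and 39 in DKO. WT replicate 2 was the low library. The local background at this site was the highest of the Bach2 window in each library, at 3.47 and 3.39 fragments in WT and 4.34 and 3.20 in DKO. The window's median background was 2.24, 2.14, 2.15 and 2.07 in the same order of libraries. Its nearest neighbours were called once each. Site 4 (32336752 to 32336903) was called in DKO replicate 2 at a fold of 4.09. Site 5 (32337403 to 32337543) was called in DKO replicate 1 at a fold of 4.69.

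Site 6, 280 bp at 32345167 to 32345446, had folds of 6.75 and 5.32 in WT and 9.36 and 6.35 in DKO. Site 13, 444 bp at 32430680 to 32431123, had 6.71 and 6.79 in WT and 11.2 and 8.23 in DKO. The summits at site 13 lay within 32 bp of each other in the 4 libraries. At site 16, 469 bp at 32450419 to 32450887, replicate numbers rather than genotypes went together. Its folds were 8.21 and 4.46 in WT and 11.2 and 5.99 in DKO, lower in the second replicate of both. The 4 summits lay within 17 bp although the called widths ran from 175 to 445 bp.

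Site 7 behaved the other way round. This site of 399 bp at 32378401 to 32378799 had folds of 4.73 and 6.90 in WT and 6.62 and 10.04 in DKO, higher in the second replicate of both. Its summits were spread over 227 bp, against a median spread of 44 bp over the 8068 sites called in all 4 libraries. The summit was at 32378450 in WT replicate 1 and 32378556 in DKO replicate 1. It was at 32378647 and 32378677 in the second replicates. The calls of the libraries thus overlapped without marking the same point. Over the 6 shared Bach2 sites the median summit spread was 32.5 bp and the median width 421.5 bp, against 320 bp in the series.

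Rank within a library was compared next, because folds of separate lists are not on 1 scale. Each of the 8068 sites called in all 4 libraries was given its percentile by fold within each library. Site 26 was at percentiles 92.6 and 95.8 in WT and 71.8 and 85.3 in DKO. Site 6 was at 35.1 and 21.7 in WT and 15.4 and 11.9 in DKO. Site 13 was at 34.4 and 53.8 in WT and 30.4 and 32.6 in DKO. In these 3 of the 6 shared Bach2 sites both DKO values lay below both WT values, which held for 19.0% of all shared sites. The opposite order was found at 0 of the 6, against 19.1% of all shared sites. At sites 3, 7 and 16 the genotypes overlapped. When ranked by −log10 p, added after the data were seen, 2 of the 6 sites kept the order and site 13 did not. With 2 libraries per genotype the smallest exact permutation p for any 1 site is 0.33, so none can pass 0.05.

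The mean difference in percentile, DKO minus WT, was -15.6 at site 26, -14.8 at site 6 and -12.6 at site 13. At sites 3 and 16 it was -10.8 and -13.7, but there the WT replicates were 46.7 and 56.5 percentile points apart. At site 7 it was -1.66. The 6 sites share libraries and a locus and are not replicates of the genotype. The single shared Satb1 site was at percentiles 11.9 and 19.3 in WT and 11.9 and 23.1 in DKO, with overlapping genotypes. It was a weak site by this measure in each library.

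**Figure D3:**
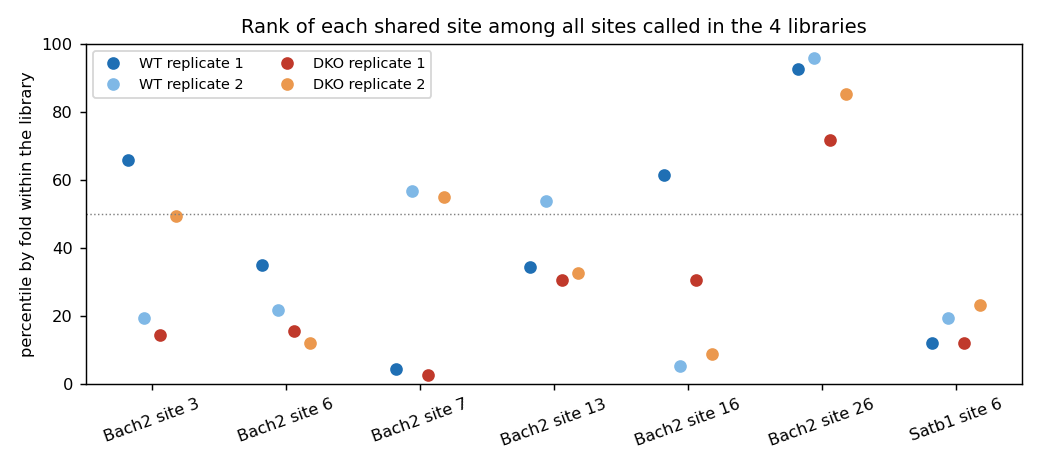
Percentile by fold (vertical axis) of the 6 Bach2 sites and the 1 Satb1 site called in all 4 libraries, among the 8068 sites called in all 4, with 1 point per library and the dotted line at the middle. Bach2 site 26 is at percentile 71.8 or higher in each library, and WT points lie above DKO points at sites 6, 13 and 26.

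The 3 DKO-only sites of Bach2 all lay in the lower group. Site 14, 277 bp at 32438332 to 32438608, had folds of 8.87 and 7.18 in DKO replicates 1 and 2, with pileups of 27 and 21. It stood above 53.4% and 49.3% of those lists. Site 17, 510 bp at 32474550 to 32475059, had folds of 6.37 and 6.43 and pileups of 19 and 16, and was the widest site of the window. Site 2, 233 bp at 32326813 to 32327045, had folds of 4.30 and 6.75 and pileups of 15 and 20, so it was stronger in the second DKO replicate. Site 2 was 1.11 kb beyond site 1, which WT replicate 1 also called. These were not among the strongest peaks of their lists. The median fold of the 3 was 6.37 and 6.75, against 8.16 and 6.06 for all DKO-only sites.

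Several Bach2 sites were called in 3 libraries. Site 1, 142 bp at 32325566 to 32325707, had folds of 5.41 in WT replicate 1 and 11.3 and 7.91 in DKO, with summits within 10 bp. WT replicate 2 missed it. Site 8 (32394175 to 32394547) had folds of 4.76 in WT replicate 2 and 7.80 and 4.80 in DKO. Site 12 (32422664 to 32422988) had 4.21 in WT replicate 2 and 8.25 and 7.56 in DKO. WT replicate 1, the longer WT list, missed both.

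The other sites called in 3 libraries lacked DKO replicate 2. Site 20, 294 bp at 32647251 to 32647544, had folds of 8.04 and 7.80 in WT and 6.45 in DKO replicate 1. The WT calls stood above 73.6% and 78.5% of their lists, and the DKO replicate 1 call above 29.5% of its list. Site 18 (32500124 to 32500342) had folds of 6.80 and 4.29 in WT and 7.51 in DKO replicate 1, with summits within 3 bp. These 2 of 26 sites compare with 1.45% of all sites that were called in both WT lists and DKO replicate 1 and missed by DKO replicate 2. Site 19 (32510739 to 32510890) was called in WT replicate 1 alone, at a fold of 7.47 and a pileup of 23, above 66.3% of that list.

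A further 4 Bach2 sites (15.4%, background 5.28%) were called in both first replicates and in neither second replicate. Site 23, 109 bp at 32673721 to 32673829, had folds of 8.54 in WT replicate 1 and 14.7 in DKO replicate 1. It was among the 3 strongest sites of the window, with pileups of 26 and 37. Site 22 (32659092 to 32659327) had folds of 6.36 and 12.3 in those libraries, with summits 1 bp apart. Site 24 (32675299 to 32675551) had 7.76 and 5.27, and site 11 (32418072 to 32418224) had 4.25 and 4.97. A fold of 14.7 in a single DKO replicate thus did not carry over to a call in the other. Of the 16 Bach2 sites called in any WT list, DKO replicate 1 called 15 (93.8%) and DKO replicate 2 called 9 (56.2%). In the series these shares were 85.7% and 70.9%.

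The 6 Bach2 sites of DKO replicate 1 alone had folds between 4.49 and 8.26. The strongest of them was site 9 (32406696 to 32406850, fold 8.26), which lay 0.306 kb below site 10 (32407157 to 32407321, fold 5.70). Site 15 (32438999 to 32439139, fold 5.36) was 0.39 kb above the DKO-only site 14. Site 21 (32652012 to 32652116) and site 25 (32688179 to 32688354) had folds of 5.43 and 4.49. Site 25 had a pileup of 9 at a background of 1.23, the lowest background of that library. Width followed the number of calls. Bach2 sites called once had a median width of 152 bp, those called in 2 or 3 libraries 244.5 bp and those in all 4 libraries 421.5 bp. Such an order is built into merging and held in the series as well, at 118, 203 and 320 bp.

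**Figure D4:**
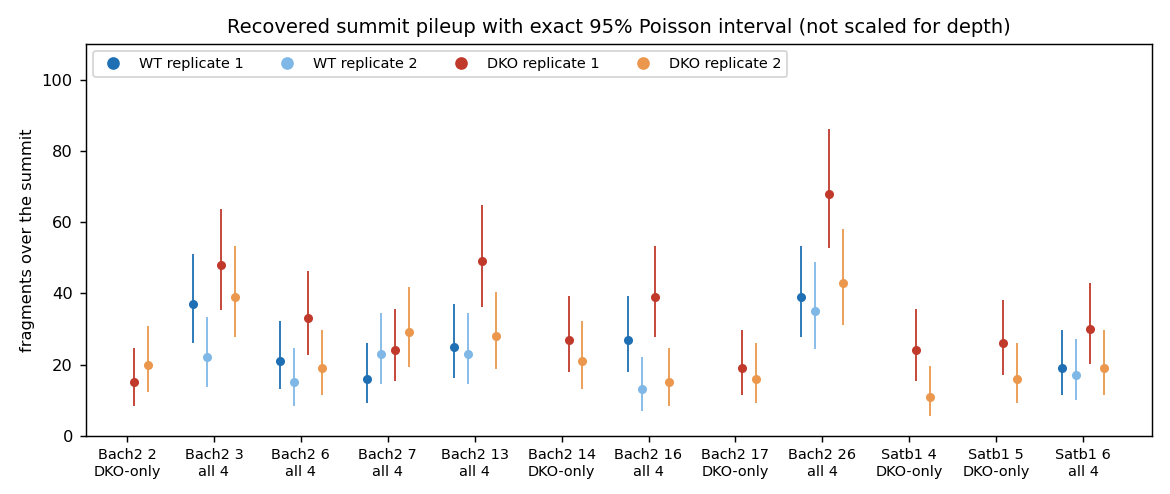
Recovered number of fragments over the summit (vertical axis) with its exact 95% Poisson interval, by library, at the 7 sites called in all 4 libraries and the 5 DKO-only sites; numbers are those of the sites in each window, and values are not scaled for depth. At Bach2 site 26 the pileup is 35 to 43 in 3 libraries and 68 in DKO replicate 1, and the DKO-only sites have 11 to 27 fragments.

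At Satb1 the only site called in all 4 libraries lay outside the gene. The gene spans about 51.876 to 51.973 Mb of chromosome 17 and, being on the minus strand, starts at its upper end. Site 6, 263 bp at 52015824 to 52016086, lay 43.0 kb above that end. Its folds were 5.37 and 5.24 in WT and 8.83 and 7.44 in DKO, with pileups of 19 and 17 in WT and 30 and 19 in DKO. The exact Poisson intervals of all 4 pileups overlapped, from 11.4 to 29.7 and 9.90 to 27.2 in WT and from 20.2 to 42.8 and 11.4 to 29.7 in DKO. The WT summits were at 52016047 and 52016045, and the DKO summits at 52015958 and 52015973. Summits of the same genotype were thus 2 and 15 bp apart, and those of the genotypes at least 72 bp apart. Bach2 site 6 also split by genotype, at 3 and 12 bp within and at least 13 bp between, and the other shared Bach2 sites did not. The share of such splits among the 8068 sites called in all 4 libraries was not computed, so no genotype effect is read from them.

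Site 5 lay at the upper end of the Satb1 span and was DKO-only. This site of 216 bp at 51972496 to 51972711 was centred 0.397 kb inside the end of the span, a position known here to the nearest kb. Its folds were 7.47 and 5.49 in DKO replicates 1 and 2, with pileups of 26 (interval 17.0 to 38.1) and 16 (9.15 to 26.0). The summits were 14 bp apart. Site 4, 194 bp at 51965879 to 51966072, was the other DKO-only site, 7.03 kb inside the span. Its folds were 8.60 and 4.55 and its pileups 24 and 11. In DKO replicate 1 sites 4 and 5 stood above 51.6% and 40.2% of the list, and in DKO replicate 2 above 7.11% and 23.1%. Both were therefore low in the DKO replicate 2 list.

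Within the Satb1 span the 5 sites had 1 and 0 calls in WT replicates 1 and 2 and 5 and 2 calls in DKO. Beyond the upper end the 5 sites had 3 and 1 calls in WT and 4 and 2 in DKO. This order of the lists inside the span is that of their calls over all sites, 88.6% and 53.9% for DKO against 44.5% and 28.2% for WT, and nothing is read from it. At equal list length no call inside the span was left. The sole WT call there was at site 3 (51953684 to 51953905), with folds of 4.99 in WT replicate 1 and 4.20 in DKO replicate 1 and summits 125 bp apart. Site 1 (51901965 to 51902107) had the highest fold of the window, 9.86, with a pileup of 25, but was called in DKO replicate 1 alone. Site 2 (51939651 to 51939788) was also called there alone, at a fold of 4.92. No library had a call below site 1, over 121.97 kb from the start of the window.

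Beyond the upper end, site 8 (52033752 to 52033890), 60.8 kb above the gene, was called in 3 libraries. Its folds were 5.91 in WT replicate 1 and 8.74 and 4.66 in DKO, with summits within 41 bp. DKO replicate 2 had a pileup of 9 there, at the lowest background of that library. Site 7 (52018667 to 52018797) was called in WT replicate 1 alone at a fold of 4.15. Sites 9 and 10 (52043345 to 52043521 and 52045915 to 52046005) were called in DKO replicate 1 alone at folds of 6.19 and 4.36. In RefSeq's gene order the neighbours above Satb1 are the non-coding gene Gm20098, the pseudogene Gm19197 and 2 further non-coding genes. Their mm9 positions were not used here.

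**Figure D5:**
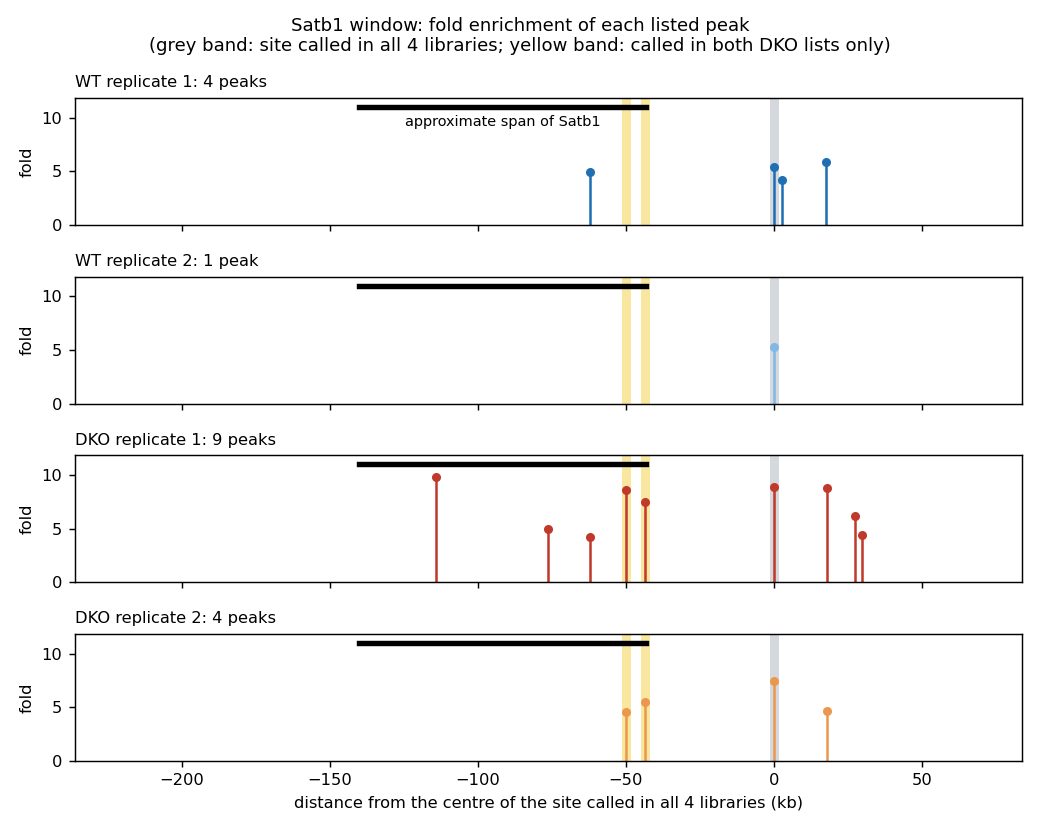
Fold enrichment (vertical axis, ratio) of each listed peak in the Satb1 window against distance from the centre of site 6 (horizontal axis, kb), 1 panel per library, with the approximate span of the gene as a black bar. Grey marks the site called in all 4 libraries and yellow the 2 DKO-only sites, which lie 0.397 and 7.03 kb inside the upper end of the span.

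The standing of peaks by fold within their own list was compared between the genes without a test. At Satb1, 0 of 4 and 0 of 1 WT peaks and 4 of 9 and 1 of 4 DKO peaks lay above the middle of their list by fold, and none in the top 10%. At Bach2, 10 of 14 and 4 of 10 WT peaks and 9 of 24 and 6 of 13 DKO peaks did. The median standing of Bach2 peaks was above 61.2% and 30.1% of the WT lists and 42.2% and 49.3% of the DKO lists. For Satb1 the WT medians were 25.1% and 28.6%, and the DKO medians 40.2% and 16.2%. The Satb1 medians of WT replicate 1 and DKO replicate 2 were well below those of Bach2. In DKO replicate 1 the medians were close and a larger share of Satb1 peaks lay above the middle, and the Satb1 value of WT replicate 2 rests on 1 peak.

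Equal list lengths changed the counts at both genes. Each list was cut to its 11073 peaks of highest −log10 p. Bach2 kept 12 and 10 peaks in WT and 7 and 8 in DKO, and Satb1 kept 1 and 1 in WT and 0 and 1 in DKO. No DKO-only site was left at either gene, against 5.75% of the sites at that length. Bach2 sites 6, 18 and 20 were then WT-only, against 4.61% of all sites at that length. The Bach2 sites left at that length were fewer than the 26 of the full lists, so these 3 are not a share of 26. In the full lists DKO replicate 1 called each of the 3 Bach2 sites and DKO replicate 2 called Bach2 site 6. At Satb1 only its site 6 was left at that length, so the count of 0 DKO-only sites there rests on that site.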

How the data were processed

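DNase-seq peak lists of 4 libraries, 1 list per library, were analysed. Per the submitters' processing notes, the tools were Bowtie2 2.2.5, FastQC and MACS2 2.1.1 and the build mm9. Their settings, any control library and the treatment of duplicates were not given in the sources used here. The authors deposited per peak a fold enrichment (a ratio), the −log10 p and −log10 q, and a score of 10 times −log10 q that was not used. Deposited positions count from 0 and were converted to count from 1. MACS2's fold and p were solved for the summit pileup and background of peaks with −log10 p under 250, and pileups were whole within 0.02 for 100% of them. On 5000 simulated peaks 100% of pileups were recovered. Read totals are not given, and list length and lowest background, given in their place, order the genotypes in opposite ways. DKO lists were longer, but the lowest background was 1.50 and 1.47 fragments in WT and 1.23 and 1.15 in DKO. Which genotype was sequenced more deeply is therefore not known here.

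Groups came from the sample titles. Peak numbers were compared with exact permutation tests of log2 values, and sites by calls. Named are, by rule, all sites called in 4 libraries, all DKO-only and WT-only sites and the 3 of highest fold per locus; every other site was added after its values were seen. The members and lists were chosen with earlier results of these data known. Alternatives were stricter −log10 q, equal list lengths, other merging, narrower windows and leaving out each library. Replicate numbers were not used to pair the libraries, and the sample titles do not say whether same-numbered libraries were prepared together. Promoter stretches are from RefSeq (GRCm38.p6). Python 3.11.15, numpy 2.4.6, pandas 2.3.3, scipy 1.17.1 and matplotlib 3.10.9 were used.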

Additional observations from a re-analysis of the deposited data

How the results depend on the processing

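Scaling to list length and cutting the lists to 11073 peaks turned the direction at Bach2: the log2 difference in peak number, 0.58 over the full lists, was -0.39 and -0.55. At Satb1 scaling gave 0.62 against 1.58, and at equal length no log2 difference could be had because DKO replicate 1 kept 0 peaks. At equal length DKO-only sites fell to 0 at Bach2 and 0 at Satb1, and WT-only sites rose to 3 at Bach2. Over all sites the DKO-only share likewise fell, from 14.3% to 5.75%, and the WT-only share rose from 0.631% to 4.61%. At −log10 q of at least 5 and of at least 10, 1 DKO-only site was left at Satb1 each time, and at 10 there was 1 WT-only site at Bach2; at 10 no log2 difference could be had for Satb1, where WT had 0 peaks. Leaving out 1 library gave log2 differences of 0.14 to 1.02 at Bach2 and 0.58 to 2.58 at Satb1. It gave 4 to 9 DKO-only sites at Bach2 and 2 to 6 at Satb1, most without DKO replicate 2, and 0 to 2 and 0 to 1 WT-only sites. Such counts can only rise when a list is removed. Shares over all sites were not computed at the −log10 q cutoffs or with a library left out. Nothing about the loci is read from those counts. A block by replicate number was not fitted, since it cannot change the log2 differences of 0.58 and 1.58. The deviations of same-numbered libraries correlated at -0.01 over the 8068 sites called in all 4 libraries. Sites missed by a list are not in that correlation, so it cannot show whether same-numbered libraries were prepared together. Windows narrowed by 20 kb, merging within 500 bp and merging at 50 bp overlap kept the DKO-only and WT-only counts within 1.5 times. The narrowed window no longer held Bach2 site 26, the site of highest fold. Percentiles of shared sites were compared in the full window only. The causes were not tested. The smallest listed pileup was 8 to 10 fragments, so weaker sites are not seen in these lists.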
